A study of Arabidopsis thaliana with 12 samples.

Results

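Among the genes whose small RNA rises when both cytoplasmic RNA decay routes of Arabidopsis are lost, 123 kept a ratio of at least 0.5 to that level, and of at least 3 to the wild type, when RDR6 was lost as well. Small RNA (under 200 nt) was counted per gene in aerial tissue of Arabidopsis thaliana at 18 days of age, in 4 genotypes with 3 libraries each. The groups were the triple mutant rdr6-11 ein5-1 ski2-3, the double mutant ein5-1 ski2-3, the mutant rdr6-11 and the Col-0 wild type. The triple and the double mutant both carry ein5-1 and ski2-3, and no treatment is given for any group. Library totals lay between 2358724 and 2909767 counts.

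The 123 genes were chosen on these values themselves. Counts were divided by the library total and expressed as CPM (the usual counts-per-million unit), averaged per genotype, and 0.5 was added to each mean. A nuclear gene counted as a gain if it had a mean of at least 5 CPM in ein5-1 ski2-3 and a ratio of at least 4 over Col-0. Of 30647 nuclear genes, in a table of 30926, 953 were gains. Of the gains, 123 (12.9%) also had a triple mutant ratio of at least 3 over Col-0 and at least 0.5 over ein5-1 ski2-3. The ratio of at least 0.5 alone was met by 193 gains. The 123 are called members below, and the other 830 are gains not kept. The comparisons among the triple mutant, ein5-1 ski2-3 and Col-0 were used by the choice, so their values describe the members and carry no test.

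Cytoplasmic mRNA is degraded from its 5′ end by the exonuclease EIN5 (also called XRN4) and from its 3′ end by the exosome with the helicase SKI2. RDR6 copies single-stranded RNA into double-stranded RNA, which Dicer proteins cut into secondary siRNAs, as at the TAS loci. The counts per gene carry neither read length nor strand, so siRNAs and fragments of longer RNA from a gene were summed together. Since whole aerial tissue was sampled, fewer cells that contain an RNA and less of it per cell cannot be told apart.

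As a check of the genotypes, TAS2, a non-coding source of trans-acting siRNAs and no member, had 12.3, 17.7 and 21.1 CPM in the triple mutant and 7.22, 7.41 and 8.53 CPM in rdr6-11, against 1066, 1057 and 1081 CPM in Col-0. RDR6 averaged at most 1.62 CPM and EIN5 at most 1.85 CPM in any genotype, too little to check the mutations by their own counts. Replicates 1 and 2 of ein5-1 ski2-3 differed by no more than the sampling noise: over 3821 protein-coding genes the chi-square averaged 0.999 a gene. They were counted as 1 sample in the fitted model, while Col-0 replicates 2 and 3, at 1.02 a gene, were kept as separate samples. Replicate 3 of ein5-1 ski2-3 stood apart: its members summed to 1831 CPM, against 2305 and 2233 CPM in replicates 1 and 2. The difference was not confined to the members. MIR genes made up 2.43% of its counts, against 3.69% and 3.67%, and nuclear rRNA genes 53.9%, against 50.8% in each of replicates 1 and 2. The labels do not say whether replicates came from separate plants.

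Which genes meet the rule depends on how libraries are scaled, and this bears on every ratio below. With TMM scaling, which estimates library sizes from genes that change little, 110 genes met the rule, and 46 of the 123 were among them. With DESeq2 size factors 101 genes met it, 40 of them members, and with totals that leave out rRNA, tRNA and organelle genes 151 did, 51 of them members. Under all 4 scalings 40 members met it, among them LRX3, PDX1.1, TCH4, COPT6, ARO3, SLP2 and PHI-1. For the 123 members the median ratio of ein5-1 ski2-3 over Col-0 was 6.60 with total counts and 4.12 with TMM. Their median ratio of the triple mutant over ein5-1 ski2-3 was 0.617 with total counts, 0.826 with TMM, 0.850 with DESeq2 size factors and 0.965 without rRNA, tRNA and organelle genes. It lay above 1 for 7 members with total counts, 25 with TMM, 27 with DESeq2 size factors and 50 without those genes. No member fell under the ratio of 0.5 in any of these scalings. The steps missed were the ratio to Col-0, which 56 members missed under TMM, the level in ein5-1 ski2-3, which 31 missed, and the triple mutant's ratio to Col-0, which 40 missed.

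**Figure D1:**
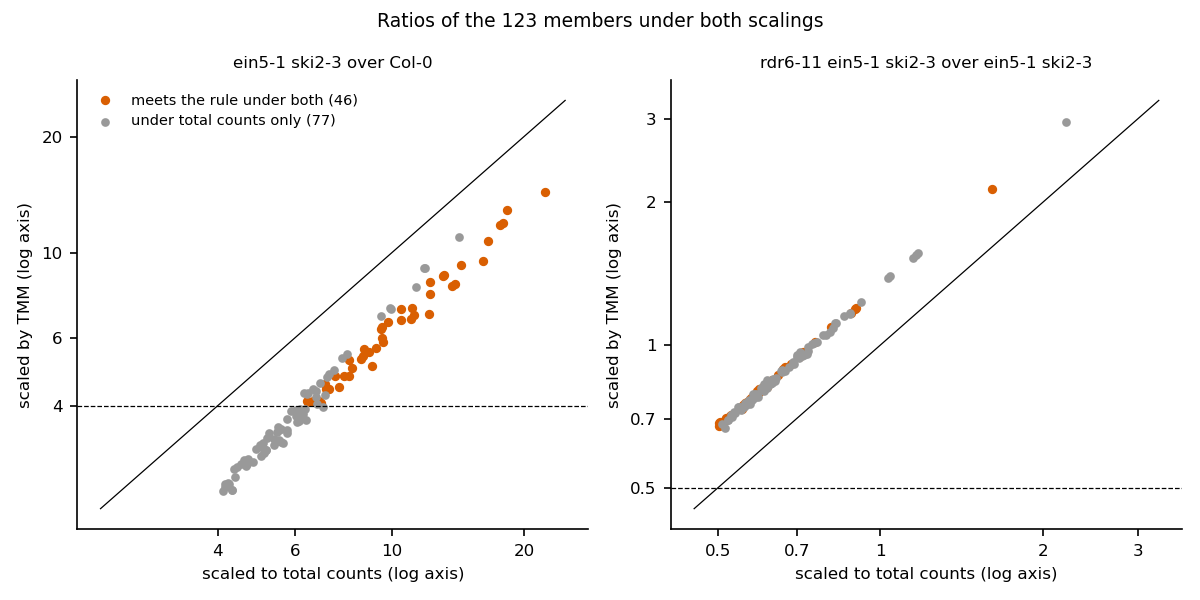
Each point is 1 of the 123 members, with its ratio of mean CPM + 0.5 under total counts on the x axis and under TMM on the y axis (both log axes), for ein5-1 ski2-3 over Col-0 at left and the triple mutant over ein5-1 ski2-3 at right. Solid lines mark equal values and dashed lines the thresholds of 4 and 0.5: 56 members lie under 4 at left, and none lies under 0.5 at right.

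The 2 members with the highest levels, AT3G06433 and AT3G06437, are transcribed pseudogenes on chromosome 3 that face each other as arms of an inverted repeat. An RNA that runs through both arms of such a repeat can fold back on itself into double-stranded RNA. AT3G06433 lies at 1958901 to 1962344 on the plus strand and AT3G06437 at 1970997 to 1972455 on the minus strand (TAIR10.1). The arms align over 776 bases with 98.1% identity, lie 9361 bases apart, and hold an exact match of 173 bases. A window of 120 bases from each arm (RefSeq, TAIR10.1) shows how closely they match. It lies at chr3:1961072-1961191 on the plus strand for AT3G06433 and at chr3:1971565-1971684 on the minus strand for AT3G06437, and capitals mark the 2 bases that differ between the arms.
AT3G06433: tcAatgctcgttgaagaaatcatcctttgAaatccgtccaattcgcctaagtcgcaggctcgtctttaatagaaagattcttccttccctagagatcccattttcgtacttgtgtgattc
AT3G06437: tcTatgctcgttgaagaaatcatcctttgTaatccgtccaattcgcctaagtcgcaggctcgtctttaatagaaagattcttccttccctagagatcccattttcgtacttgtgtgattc

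Small RNA from these arms cannot be assigned to 1 of them, and both also share long near-identical stretches with AT4G20953 and AT4G20960 on chromosome 4. AT3G06433 had 246, 191 and 204 CPM in the triple mutant and 350, 316 and 236 CPM in ein5-1 ski2-3. It had 136, 145 and 149 CPM in rdr6-11 and 55.6, 88.2 and 64.0 CPM in Col-0. Of the 3 mutants each had all its libraries above all Col-0 libraries, and the triple mutant and ein5-1 ski2-3 overlapped. AT3G06437 ran in parallel at a lower level, with means of 111 CPM in the triple mutant, 159 CPM in ein5-1 ski2-3, 74.3 CPM in rdr6-11 and 36.5 CPM in Col-0. The ratio of ein5-1 ski2-3 over Col-0 was 4.32 for each, close to the threshold of 4, and 2.42 for each with TMM, where neither met the rule.

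Other members with an inverted repeat of at least 100 bases and 80% identity within 20000 bases were rare. There were 5 of 123 members (4.07%) with one, beside 39 of 824 annotated gains not kept (4.73%). The other 3 were CRK10, the pseudogene AT5G32408 and UGT71B5, the last of these named after its values were seen, with identities of 80.3%, 81.4% and 80.3%. Near-identical copies, of at least 200 bases and 95% identity, touched 6 members (4.88%), beside 72 of the 824 (8.74%).

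Most members were ordinary genes. Protein-coding genes made up 113 of the 123 (91.9%), beside 727 of the 830 gains not kept (87.6%). There were 5 transcribed pseudogenes, 3 pseudogenes, 1 lncRNA and 1 MIR gene, and none was a tRNA, rRNA, snRNA or snoRNA gene. The longest transcript had 1 exon in 63 of the 113 protein-coding members (55.8%), beside 313 of 727 gains not kept (43.1%) and 4543 of all 24519 nuclear protein-coding genes (18.5%). A gene on the opposite strand overlapped 25 members (20.3%), beside 22.1% of the gains not kept and 21.7% of nuclear genes. Because members can share reads, 16 of them fell into 8 sets of overlapping genes or copies, so that the 123 members made 115 sets.

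Member levels were modest. The ein5-1 ski2-3 mean was under 10 CPM for 59 members and at least 50 CPM for 5, whereas 92 of the gains not kept reached 50 CPM. Over the members the ein5-1 ski2-3 mean ranged between 5.04 and 301 CPM with a median of 10.8 CPM, the triple mutant mean had a median of 6.52 CPM, the rdr6-11 mean 1.76 CPM and the Col-0 mean 0.993 CPM. In Col-0, 81 members had at most 10 counts over the 3 libraries and 3 had none. At this depth most Col-0 means therefore rest on few counts. Intervals here cover counting error only, since they come from summed counts and hold no term for the spread between libraries. The reads also carry no molecular identifiers.

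Summed over the 123 members, small RNA came to 1478, 1373 and 1341 CPM in the triple mutant and 2305, 2233 and 1831 CPM in ein5-1 ski2-3. It came to 522, 537 and 556 CPM in rdr6-11 and 259, 315 and 281 CPM in Col-0, so the 4 groups did not overlap with total counts. The arms AT3G06433 and AT3G06437, which share reads, were a large part of the lower sums. They averaged 143 and 74.3 CPM in rdr6-11 and 69.3 and 36.5 CPM in Col-0. The sums of the 830 gains not kept were 5583, 5144 and 5122 CPM in the triple mutant and 33001, 32709 and 25430 CPM in ein5-1 ski2-3. The members were thus a small part of the gained small RNA in ein5-1 ski2-3. Member by member, all 123 had every ein5-1 ski2-3 library above every Col-0 library, as did 64.2% of the 7219 genes that passed the filter on low counts. All 123 also had every triple mutant library above every Col-0 library, as did 35.2% of those genes. Both patterns follow closely from the choice, and nothing is read from them.

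Per kilobase of transcript, the level in ein5-1 ski2-3 was highest for the paired pseudogenes, at 109 CPM for AT3G06437 and 87.4 CPM for AT3G06433. The pseudogene AT1G05135 followed at 83.7 CPM per kilobase, then PDX1.1 at 70.4, LRX3 at 41.3 and PDX1L4 at 35.9, while the median member had 6.24 CPM per kilobase.

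**Figure D2:**
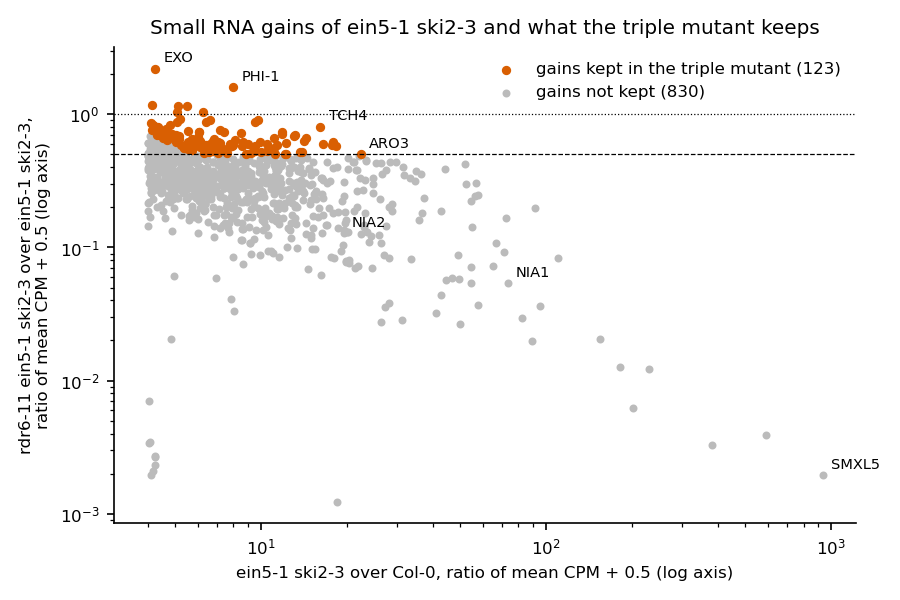
Each point is 1 of the 953 gains, placed by its ratio of ein5-1 ski2-3 over Col-0 (x axis, log) and of the triple mutant over ein5-1 ski2-3 (y axis, log), both of mean CPM + 0.5. The 123 members lie on or above the dashed line at 0.5, 7 of them above the dotted line at 1, while NIA2 at 0.128, NIA1 at 0.0542 and SMXL5 at 0.00194 lie far below.

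The ratio of ein5-1 ski2-3 over Col-0 had a median of 6.60 among the members and 7.42 among the gains not kept. Its highest value among the members was 22.4, that of ARO3, while the gains not kept reached 932, that of SMXL5 (AT5G57130). The ratio of the triple mutant over ein5-1 ski2-3 had a median of 0.617 among members, with quartiles of 0.572 and 0.718, and 53 members lay between 0.5 and 0.6. Among the gains not kept its median was 0.310. Just inside the threshold of 0.5 were AT2G25250 at 0.502 and ARO3 at 0.503, and just outside it CDPK1 at 0.498 and AT2G43540 at 0.497. For the triple mutant ratio over Col-0, KCS2 at 3.01 and AT3G42070 at 3.02 were just inside and AT1G40115 at 2.99 and ADR1-L2 at 2.97 just outside. For ein5-1 ski2-3 over Col-0, LBD37 at 4.12 and EXL3 at 4.15 were just inside and AGP16 at 3.88 and AT2G04378 at 3.85 just outside. For the level, AT4G28180 at 5.04 CPM was just inside and AT5G55790 at 4.96 CPM just outside. In all, 77 members (62.6%) had every triple mutant library below every ein5-1 ski2-3 library, as did 52.1% of the 7219 genes tested across the series, and 2 had every triple mutant library above.

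Among the coding members with the highest levels, LRX3, a leucine-rich repeat extensin of the cell wall (AT4G13340, chromosome 4, 7758275 to 7761362), had 78.2, 74.3 and 74.8 CPM in the triple mutant and 137, 136 and 110 CPM in ein5-1 ski2-3. It had 18.2, 15.5 and 22.5 CPM in rdr6-11 and 13.1, 18.7 and 9.51 CPM in Col-0. All triple mutant libraries lay below all ein5-1 ski2-3 libraries and above all others, and rdr6-11 overlapped Col-0. PDX1.1, an enzyme of vitamin B6 synthesis (AT2G38230, chromosome 2, 16011233 to 16012515), had 52.5, 40.1 and 43.7 CPM in the triple mutant and 97.5, 99.0 and 74.6 CPM in ein5-1 ski2-3. It had 12.2, 4.94 and 10.9 CPM in rdr6-11 and 5.82, 9.33 and 5.85 CPM in Col-0. PDX1L4, its neighbour and a partial copy with a stretch of 675 identical bases, had means of 17.8, 35.0, 2.78 and 2.04 CPM in the triple mutant, ein5-1 ski2-3, rdr6-11 and Col-0. In PDX1.1 the triple mutant lay between ein5-1 ski2-3 and the other genotypes without overlap, and rdr6-11 overlapped Col-0. The counts of this pair cannot be separated.

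COPT6, a copper transporter, had 12.3, 18.4 and 14.8 CPM in the triple mutant and 31.3, 33.8 and 24.1 CPM in ein5-1 ski2-3, against 1.82, 0 and 3.29 CPM in Col-0. Its rdr6-11 libraries, at 3.04, 2.47 and 1.16 CPM, overlapped Col-0. The largest ratio over Col-0 was that of ARO3, an armadillo repeat protein, with 7.66, 11.8 and 13.7 CPM in the triple mutant and 30.5, 21.4 and 15.5 CPM in ein5-1 ski2-3, against 0, 0.848 and 0.732 CPM in Col-0. The uncharacterized protein gene AT1G35320 shows how far replicate 3 of ein5-1 ski2-3 can differ: it had 26.4, 25.8 and 24.8 CPM in the triple mutant, beside 53.1, 45.8 and 26.8 CPM in replicates 1 to 3 of ein5-1 ski2-3.

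Apart from TCH4, which is described below, the remaining genes among the 25 highest had ein5-1 ski2-3 means of 15.7 to 70.9 CPM. The transcribed pseudogene AT1G05135 led them with 43.0 CPM in the triple mutant, 70.9 CPM in ein5-1 ski2-3 and 12.2 CPM in Col-0. They include the proteases AT1G01300 (aspartyl) and SLP2 (subtilisin-like), the sulfite exporter family gene AT1G61740, the receptor-like kinase CRK10 and the related EP1. Lipid genes among them are KCS1, which elongates very-long-chain fatty acids, and the acyltransferase GPAT3. The DNA-binding genes AT1G22190 and LBD37, the raffinose-family gene SIP2, AT3G52060, AT2G05810, AT4G17410, AT2G25250 and the transcribed pseudogene AT3G30214 complete the group. Of this group GPAT3 and LBD37 kept most, with ratios of the triple mutant over ein5-1 ski2-3 of 0.792 and 0.855, and AT2G25250 least, at 0.502. The 5 smallest ratios of all members were those of AT2G25250, ARO3, PDX1.1, the leucine-rich repeat gene AT3G19020 and SHR, between 0.502 and 0.507.

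**Figure D3:**
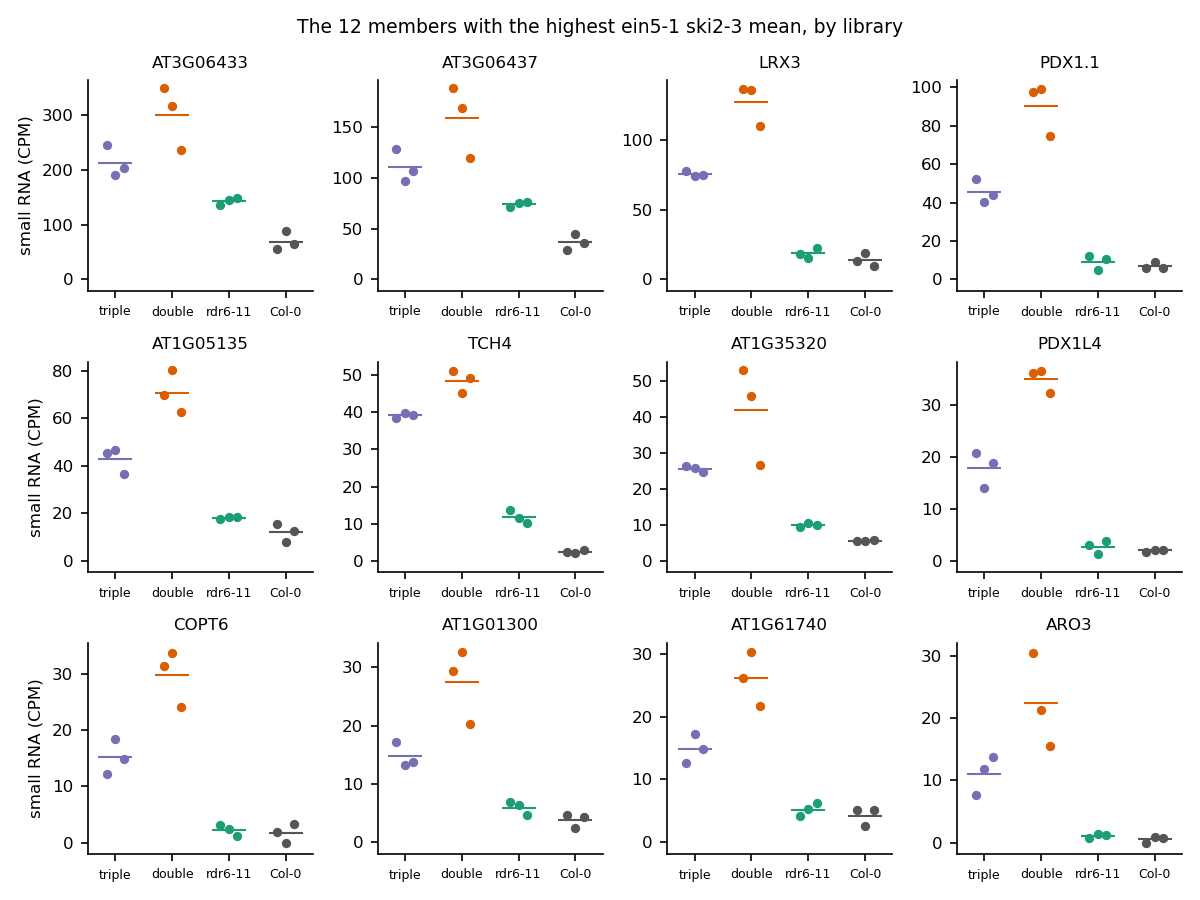
Small RNA in CPM (y axes, which include 0) of the 12 members with the highest ein5-1 ski2-3 mean, with 1 point per library and a line at each mean, for the triple mutant, the double mutant ein5-1 ski2-3, rdr6-11 and Col-0. In every panel the triple mutant mean lies below that of the double mutant and above Col-0, with LRX3 at 75.8, 128 and 13.8 CPM.

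With total counts, 3 EXORDIUM family genes were among the 7 members with a higher mean in the triple mutant than in ein5-1 ski2-3. EXO, which promotes cell expansion in response to brassinosteroids (AT4G08950, chromosome 4, 5740219 to 5741591), had 29.9, 35.7 and 34.1 CPM in the triple mutant and 11.9, 16.3 and 16.2 CPM in ein5-1 ski2-3. It had 6.46, 9.52 and 7.37 CPM in rdr6-11 and 3.64, 3.82 and 1.83 CPM in Col-0. The 4 groups did not overlap, and the triple mutant mean of 33.2 ± 2.99 CPM (SD, n = 3) was 2.21 times that of ein5-1 ski2-3 after adding 0.5. PHI-1, a phosphate-induced relative, had 7.66, 14.4 and 14.4 CPM in the triple mutant and 8.33, 6.21 and 7.56 CPM in ein5-1 ski2-3, so these groups overlapped through 1 triple mutant library. It had 2.66, 1.06 and 1.55 CPM in rdr6-11 and 0.364, 0 and 1.1 CPM in Col-0. EXL3 had 12.3, 10.3 and 11.1 CPM in the triple mutant and 8.72, 9.71 and 9.97 CPM in ein5-1 ski2-3, with no overlap, against 2.54, 1.70 and 1.46 CPM in Col-0. EXO and EXL3 were the 2 members with every triple mutant library above every ein5-1 ski2-3 library, a pattern found in 6.64% of all genes tested.

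The family has 8 genes, and the rest were looked up after these values were seen. EXL5 was a member too, with 12.6, 9.94 and 9.62 CPM in the triple mutant and 15.1, 13.6 and 10.7 CPM in ein5-1 ski2-3, which overlap. EXL2 was a gain not kept: it had 6.90, 3.31 and 5.18 CPM in the triple mutant and 20.2, 19.8 and 20.3 CPM in ein5-1 ski2-3. EXL4 was not kept either, with 3.07, 4.42 and 2.22 CPM in the triple mutant and 11.5, 6.21 and 6.87 CPM in ein5-1 ski2-3. EXL6 and EXL7 had at most 0.766 CPM in any library. The ratio of the triple mutant over ein5-1 ski2-3 thus ran between 0.273 for EXL2 and 2.21 for EXO within 1 family.

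**Figure D4:**
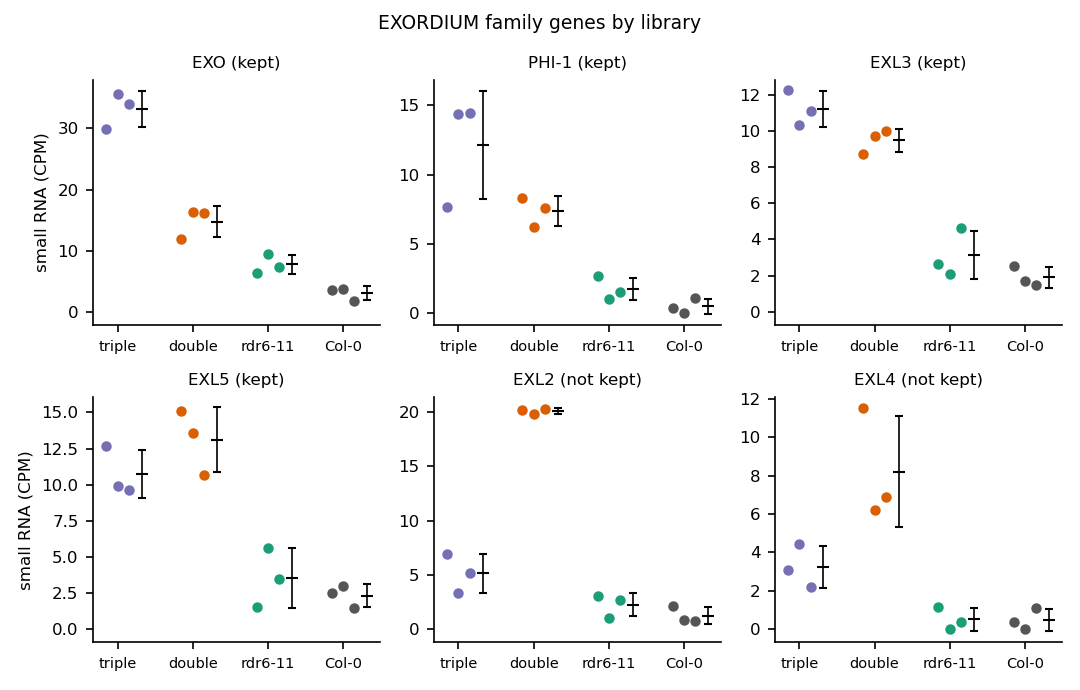
Small RNA in CPM (y axes) of 6 EXORDIUM family genes, with 1 point per library and the mean ± SD at the right of each group (n = 3), for the triple mutant, the double mutant ein5-1 ski2-3, rdr6-11 and Col-0. The triple mutant lies above the double mutant for EXO, at 33.2 beside 14.8 CPM, and below the double mutant for EXL2, at 5.13 beside 20.1 CPM.

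The other members with a ratio above 1 were annotated to sugar or cell wall metabolism. DIN10, a dark-inducible raffinose synthase family gene, had 13.4, 17.3 and 22.6 CPM in the triple mutant and 14.3, 12.0 and 19.2 CPM in ein5-1 ski2-3, against 1.09, 2.97 and 3.66 CPM in Col-0. The expansin-like gene EXLA1 had 6.51, 6.62 and 7.03 CPM in the triple mutant and 5.15, 7.38 and 4.81 CPM in ein5-1 ski2-3. GATL6, a galacturonosyltransferase gene, and BXL1, a beta-xylosidase gene, stood at 1.04 and 1.03 and were named after their values were seen. In each of these 4 the triple mutant and ein5-1 ski2-3 libraries overlapped. With TMM these 7 ratios were among the 25 above 1, between 1.39 for BXL1 and 2.95 for EXO, but PHI-1 alone of the 7 still met the whole rule.

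The members were also grouped by words in their product names, a grouping made after the members were known. Cell wall names were found for 17 of the 113 coding members, beside 27 of 727 gains not kept (3.71%) and 2.30% of all nuclear coding genes. Their ratio of the triple mutant over ein5-1 ski2-3 had a median of 0.809, and 6 of the 17 lay above 1. The group holds EXL3 and EXL5 by their EXORDIUM names, and EXO and PHI-1 by the product name Phosphate-responsive 1 family protein. That name has no cell wall word, and neither has that of LRX3, which was left out. The group thus rests on which names were listed. Since the words were chosen with the members known, this share and median are a description only. Transcription factor, DNA-binding or zinc finger names were found for 20 members (17.7%), beside 10.5% of gains not kept and 5.94% of coding genes. Their median ratio was 0.616, and none lay above 1. Protein kinase or kinase-like names, a kinase regulator among them, were found for 11 (9.73%), beside 8.25% and 5.44%. The median ratio of these members was 0.606, and none lay above 1. The other 65 coding members had a median ratio of 0.604.

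The cell wall group contains TCH4, a xyloglucan endotransglucosylase induced by touch (AT5G57560, chromosome 5, 23307006 to 23308680). It had 38.3, 39.7 and 39.2 CPM in the triple mutant and 51.2, 45.0 and 49.1 CPM in ein5-1 ski2-3. It had 13.7, 11.6 and 10.1 CPM in rdr6-11 and 2.54, 2.12 and 2.93 CPM in Col-0. The groups did not overlap in CPM, and the ratio of the triple mutant over ein5-1 ski2-3 was 0.809, or 1.09 with TMM. Of 22 stress and wound response genes listed, 17 were gains, and TCH4 alone was kept. The others included TCH3, a calmodulin-like gene also induced by touch, at a ratio of 0.304, WRKY33 at 0.293 and JAZ1 at 0.131. TCH2, another touch gene, had a ratio of 0.726 but was no gain, at 3.65 times Col-0.

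Of all gains 12.9% were members, and the listed pathways are read against that share. Of 10 nitrate reductase and SMXL genes 7 were gains and 0 were members. Of 60 genes matched to the list of TAS loci and miRNA target genes and families, 19 were gains and 1, SULTR2;1, was a member. Listed symbols that matched no single gene were not counted, and not every family gene listed is itself a target. Of 19 small RNA pathway genes 2 were gains, AGO1 at a ratio of 0.146 and AGO2 at 0.262. Of 19 genes matched by symbol alone to the RNA decay list none was a gain. Of 10 copper response genes 1 was a gain, MIR408 at 0.156. Of 168 MIR genes 9 were gains and 1 was a member. With so few gains in most lists these counts are given as a description, and none is read as a lack of members.

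SULTR2;1, a sulfate transporter, is a target of miR395 and carries its site in the coding sequence, at chr5:3193268-3193288 on the plus strand (RefSeq, TAIR10.1). In the miRNA the capitals mark the seed, bases 2 to 8, and in the site they mark the bases that pair with it, so that the seed pairs in full and 3 other positions do not form standard pairs. Mature miR843, whose gene MIR843 is the MIR member, is printed with its seed in capitals.
ath-miR395a: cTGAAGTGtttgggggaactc
SULTR2;1 site: aAGTTCtCCCAAACACTTCAa
ath-miR843: tTTAGGTCgagcttcattgga

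SULTR2;1 (AT5G10180) had 4.21, 2.58 and 3.70 CPM in the triple mutant and 5.55, 7.38 and 3.78 CPM in ein5-1 ski2-3. It had 2.28, 2.47 and 1.55 CPM in rdr6-11 and 0, 0.424 and 0.732 CPM in Col-0. MIR843 (AT3G48057, chromosome 3, 17742098 to 17742302) had 6.51, 4.78 and 5.18 CPM in the triple mutant and 10.3, 7.38 and 3.78 CPM in ein5-1 ski2-3, which overlap, against 0.727, 1.27 and 1.46 CPM in Col-0. The lncRNA gene AT2G19572, which overlaps the member CDA1, a cytidine deaminase gene, had 8.43, 6.99 and 4.81 CPM in the triple mutant and 7.14, 7.77 and 8.25 CPM in ein5-1 ski2-3, against 0.364, 0 and 0.732 CPM in Col-0.

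A site for any of 350 distinct mature miRNA sequences, at a mismatch penalty of at most 3, was found in 34 members (27.6%), beside 177 of 824 gains not kept (21.5%) and 15.3% of nuclear coding genes. Most of these sites belong to 3 low-complexity miRNAs, miR5021, miR414 and miR5658, each with sites in over 100 genes. Without those 3, a choice made after seeing the matches, 10 members had a site (8.13%), 1 of them MIR843 in its own hairpin, beside 10.6% of gains not kept and 6.34% of coding genes. A match is a description of the sequence and shows no cleavage.

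SHR, a transcription factor of root patterning, was a member with 3.83, 5.15 and 3.33 CPM in the triple mutant and 11.1, 7.77 and 6.87 CPM in ein5-1 ski2-3. It had 0.760, 0.705 and 1.55 CPM in rdr6-11 and 0.364, 0 and 0.366 CPM in Col-0. SHR is also 1 of 6 root marker genes whose levels were summed. The sum was 6.13 to 7.73 CPM in the triple mutant and 14.0 to 19.0 CPM in ein5-1 ski2-3. It was 1.14 to 2.71 CPM in rdr6-11 and 0.727 to 1.27 CPM in Col-0. SHR and SCR made up most of that sum, so it is no separate observation from SHR. The root-hair and stem-cell markers EXPA7, SHV2, PLT2 and WOX5 averaged at most 0.262 CPM in any genotype and were all at 0 in Col-0. The 8 green tissue markers summed to at least 1141 CPM in every library, and 5 floral markers to at most 1.16 CPM. The part of root material in these values was not tested.

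The choice was also repeated with 1 library left out, and the ratios were then read in that library against the other genotypes' means, which had taken part in the choice. The shares describe how far the members rest on single libraries and are no independent support. When 1 triple mutant library was left out and the genes were chosen from the rest, 119, 127 and 128 genes were chosen, and 83 (69.7%), 80 (63.0%) and 78 (60.9%) of them met both triple mutant ratios in the library left out. When 1 ein5-1 ski2-3 library was left out, 83 of 124, 88 of 115 and 86 of 108 met the ratios in it. When 1 Col-0 library was left out, 87 of 131 (66.4%), 83 of 127 and 82 of 129 (63.6%) met them. With replicates 1 and 2 of ein5-1 ski2-3 left out together, 132 genes were chosen from replicate 3, of which 87 were members, and 72 (54.5%) met the ratios in the pair left out. Without replicate 3, 108 genes were chosen, 96 of them members.

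The loss of RDR6 with decay intact, rdr6-11 against Col-0, is the comparison in which the rdr6-11 libraries had no share in the choice, although Col-0 did. Members had to be low in Col-0, so a positive change against the same Col-0 libraries is partly set by the choice. The median log2 change of the 122 members that passed the filter on low counts was 0.41, beside -0.02 over all 7219 genes tested, and 90 of the 122 were above 0, given as a description. DAG2 did not pass. With edgeR's quasi-likelihood test and Benjamini-Hochberg adjustment over all genes, 9 of the 122 members (7.38%) were called higher at an adjusted p under 0.05, beside 21.3% of all genes tested, and 0 were called lower, beside 15.3%. The members' shares of calls were below those of all genes in this fit, but nothing is read from that. Most members passed the filter only with ein5-1 ski2-3 and the triple mutant in the fit, where the choice makes them high. With only rdr6-11 and Col-0 libraries in the fit, 23 members passed the filter and 7 were higher, beside 31.7% of all genes. The split also depended on other settings. With library sizes from total counts 23 members were higher and 0 lower, beside 32.7% of all genes higher. With sizes from MIR genes 2 of 122 were higher and 9 lower, beside 0.693% of all genes higher. The share of all genes lower in that setting is not given, so nothing is read from the 9. With no filter on low counts 8 of 123 were higher, beside 5.09% of all genes. With MIR gene sizes the members' median turned to -0.34, beside -0.77 over all genes. By CPM alone, 36 of 123 members (29.3%) had every rdr6-11 library above every Col-0 library, beside 37.7% of all genes tested, and 1, ERF15, named after its values were seen, had every one below, beside 8.69%. In 21 members (17.1%) every rdr6-11 library lay above every Col-0 library and every triple mutant library below every ein5-1 ski2-3 library, beside 27.4% of all genes tested.

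The clearest of the 9 was TCH4, whose rdr6-11 libraries at 10.1 to 13.7 CPM stood apart from Col-0 at 2.12 to 2.93 CPM, a log2 change of 1.73 ± 0.30 (SE, edgeR adjusted p = 5.99e-06). FLA9, a fasciclin-like arabinogalactan protein of the cell wall, had 3.8, 4.94 and 4.26 CPM in rdr6-11 and 0.727, 0.424 and 1.46 CPM in Col-0, a change of 1.78 ± 0.51 (edgeR adjusted p = 0.00405). EXO rose by 0.88 ± 0.33 (edgeR adjusted p = 0.0322), with no overlap of its libraries. EXO passed no longer without Col-0 replicate 3 (log2 change 0.59, edgeR adjusted p = 0.214) or rdr6-11 replicate 2 (0.72, edgeR adjusted p = 0.132), nor with DESeq2 (0.87, DESeq2 adjusted p = 0.0751) or sizes from MIR genes (0.12, edgeR adjusted p = 0.832). FLA9 was not called with MIR gene sizes either (1.03, edgeR adjusted p = 0.122). These 3 genes were the called ones of 17 tested in the cell wall group, beside 21.3% of all genes tested called higher. Nothing is read from that count.

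AT4G27280, an EF-hand calcium-binding protein gene, had 3.8, 3.17 and 1.16 CPM in rdr6-11 and 0, 0 and 0.366 CPM in Col-0. With 22 counts in rdr6-11 and 1 in Col-0 the ratio was 15.5, with a 95% counting interval of 2.5 to 638 (edgeR adjusted p = 0.00128). Its fitted log2 change of 3.66 became 6.03 without Col-0 replicate 3, which holds that count. SULTR2;1 had 17 counts in rdr6-11 and 3 in Col-0, so its ratio was 3.98 and the interval ran between 1.15 and 21.2 (edgeR adjusted p = 0.0456). It passed no longer without Col-0 replicate 1 or 2, rdr6-11 replicate 1 or 2, or ein5-1 ski2-3 replicates 1 and 2 together, with edgeR adjusted p between 0.0506 and 0.210. It was not called with no filter (edgeR adjusted p = 0.102) or MIR gene sizes (edgeR adjusted p = 0.256) either. DESeq2 gave no adjusted p for AT4G27280 or SULTR2;1, which are not among its 6 calls.

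The pseudogenes made up the rest of the 9 calls. AT3G42070 had 5.70, 4.59 and 5.43 CPM in rdr6-11 and 1.45, 1.27 and 0.366 CPM in Col-0, a log2 change of 1.86 ± 0.47 (SE, edgeR adjusted p = 0.00126). Its rdr6-11 mean of 5.24 CPM was above the triple mutant mean of 4.12 CPM. AT5G32408 had 10.3, 7.05 and 6.20 CPM in rdr6-11 and 1.09, 2.54 and 2.56 CPM in Col-0, a change of 1.46 ± 0.36 (edgeR adjusted p = 0.00109), and its triple mutant mean was 7.98 CPM beside 7.84 CPM in rdr6-11. The arms AT3G06433 and AT3G06437 rose by 0.59 ± 0.12 (edgeR adjusted p = 0.000124) and 0.57 ± 0.14 (edgeR adjusted p = 0.00105). Scaled to MIR genes, whose share is 5.29% to 6.09% of rdr6-11 libraries and 2.29% to 2.45% of Col-0 libraries, both turned to -0.19 and -0.21 and were not called. In that scaling AT3G42070 (1.1, edgeR adjusted p = 0.0773) and AT5G32408 (0.70, edgeR adjusted p = 0.173) were not called either.

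**Figure D5:**
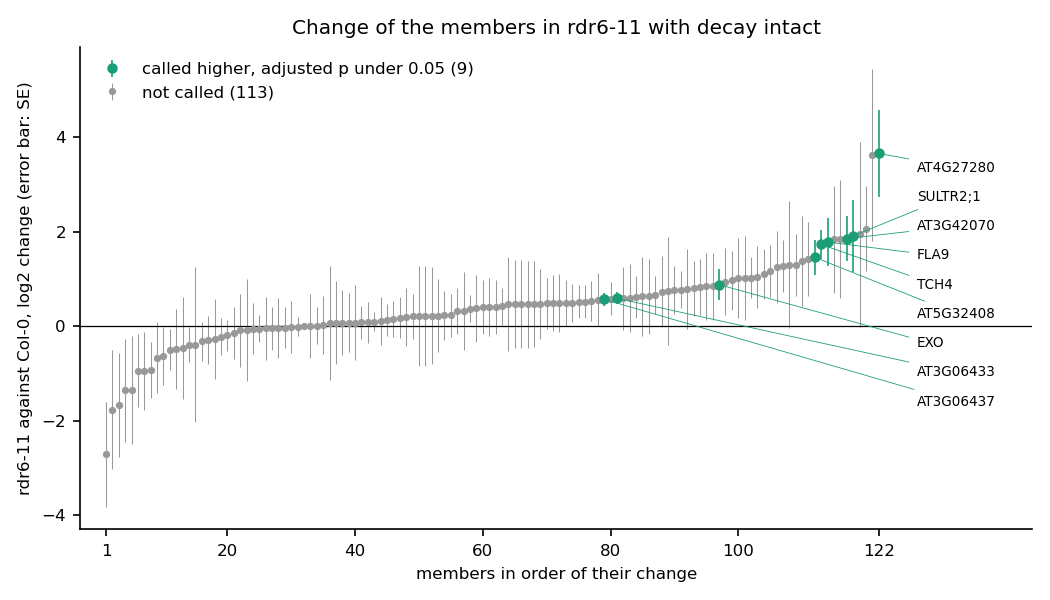
Log2 change of rdr6-11 against Col-0 (y axis, with its SE) for the 122 members tested, in ascending order on the x axis. The 9 members called higher are named, from 0.57 for AT3G06437 to 3.66 for AT4G27280, and the fitted value of AT4G27280 rests on 1 count in Col-0.

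The high-level coding members did not pass this test. The log2 change was -0.01 ± 0.20 for LRX3, -0.05 ± 0.28 for PDX1.1, -0.14 ± 0.55 for COPT6 and 0.63 ± 0.83 for ARO3, with edgeR adjusted p of 0.982, 0.913, 0.879 and 0.591. For these genes the triple mutant mean was 3.96, 4.68, 5.75 and 7.16 times the rdr6-11 mean after adding 0.5. Among all members, 111 of 123 had every triple mutant library above every rdr6-11 library, beside 22.6% of all genes tested, and the choice used the triple mutant values.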

How the data were processed

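Small RNA from aerial tissue was sequenced by the authors in 12 libraries of 4 genotypes. The deposited table gives whole-number read counts per gene and library, made by the authors; no role is given for CASAVA 1.8.2, Bowtie, Bowtie2 and DESeq, which stand beside the build TAIR10 in the submitters' processing notes. The counting rules for multiply matching reads and strand are not given in the sources used here. The authors' own fold changes and p-values were not used.

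CPM were computed here from the counts and library totals. The members and gene lists were chosen with earlier results of these data known, and no list is independent support. Members were named if among the 25 highest ein5-1 ski2-3 means, the 5 largest or smallest ratios of the triple mutant over ein5-1 ski2-3, RNA genes, listed genes, or called in rdr6-11 against Col-0; other names are marked as chosen after seeing values. The level of 5 CPM was read as the mean before adding 0.5.

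Counts were fitted in R 4.3.3 with edgeR 4.0.16 (TMM, filterByExpr with a minimum count of 10 and total of 15, 2-sided quasi-likelihood tests). The model held 11 samples, with ein5-1 ski2-3 replicates 1 and 2 summed, which left 2 samples for that group; the plan foresaw this where libraries agree within sampling noise. It was tested on simulated data. DESeq2 1.42.0 was an alternative, as were other scalings, filters, thresholds and leaving out libraries. P-values measure the spread between these libraries. Gene names, positions and sequences came from RefSeq TAIR10.1, which matched 30403 of the 30647 nuclear genes, and repeats and copies from BLAST+ 2.17.0 on it.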

Additional observations from a re-analysis of the deposited data

Results flagged for a closer look

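In 21 members (17.1%), beside 27.4% of all 7219 genes tested, the CPM differed in opposite directions with and without decay. Every rdr6-11 library lay above every Col-0 library, and every triple mutant library lay below every ein5-1 ski2-3 library. The members' share was thus below that of all genes. The difference was not tested, because the choice of members used the triple mutant, ein5-1 ski2-3 and Col-0 values. It depended on scaling: with TMM 3 of the 21 kept both patterns, AT3G57830, SHR and AT1G69890, with DESeq2 size factors 2 did, and without rRNA, tRNA and organelle genes 0 did. AT3G57830, a leucine-rich repeat kinase gene, and AT1G69890 were named after their values were seen.

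Of the 21, the genes named in the report had these ratios of the triple mutant over ein5-1 ski2-3, each of mean CPM + 0.5. The ratio was 0.609 for AT1G05135, 0.809 for TCH4, 0.617 for AT1G35320, 0.516 for SLP2 and 0.702 for SIP2. It was 0.707 for AT5G32408, 0.507 for SHR, 0.667 for AT3G42070 and 0.625 for AT4G27280.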

How the results depend on the processing

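The number of members stayed within 1.5 times 123 under other scalings, added values and left-out libraries, but their identity did not: besides the scalings in the report, adding 0.1 gave 141 genes (113 shared) and adding 1 gave 84 (81 shared). Thresholds moved the number to 64 (ein5-1 ski2-3 mean of 10 CPM), 202 (2.5 CPM), 38 (ratio of 8 over Col-0), 185 (ratio of 0.4 to ein5-1 ski2-3) and 7 (ratio of 1). Reading the level after adding 0.5, an alternative chosen after seeing the data, gave 137. Counting ein5-1 ski2-3 replicates 1 and 2 as 1 gave 129, of which 118 were shared. Leaving out libraries gave 108 to 132, sharing 87 to 123.

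In rdr6-11 against Col-0, members called higher and lower were 9 and 0 in the report. With total counts as library sizes they were 23 and 0, beside 32.7% of all genes higher. With MIR gene sums they were 2 and 9, beside 0.693% higher, and the share of all genes lower is not given. RLE gave 9 and 1, beside 21.1% higher, and DESeq2 6 and 0, beside 14.6%. All 12 libraries as separate samples gave 9 and 1, beside 22.6% higher. Leaving out libraries gave 7 to 10 higher and 0 to 1 lower, beside 17.2% to 21.6% of all genes higher. The members' median change of 0.41 was 0.86 scaled to total counts, where all genes stood at 0.44, and turned to -0.34 scaled to MIR genes, where all genes stood at -0.77. In that scaling AT3G06433 and AT3G06437 turned to -0.19 and -0.21. The cause was not tested. With the replicate block, 9 were higher and 1 lower, beside 22.6% of all genes higher. No pairing by replicate number was seen: 0 of 18 same-numbered pairs had a residual correlation above 0.1 (range -0.09 to 0.04). With 3 libraries per genotype this cannot exclude that same-numbered libraries were handled together. With only the libraries of both genotypes in the fit, 23 members passed the filter and 7 of these were higher, beside 31.7% of all genes. Counts limit precision most in Col-0.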
